A study of Mus musculus with 24 samples.

Results

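The 41 genes described here act in the G2 phase and in mitosis. They were taken by name from a fixed list, out of 24421 gene symbols in the deposited count files. The list applied no cut on their values but was chosen with earlier results of these data known. All 41 were present and passed the filter on low counts. They fall into 9 roles: cyclins and Cdk1 with their activators (Cdk1, Ccna2, Ccnb1, Ccnb2, Ccnf and Cdc25c), mitotic kinases and the chromosomal passenger complex (Aurka, Aurkb, Birc5, Plk1 and Plk4), the spindle checkpoint (Bub1, Bub1b, Ttk and Mad2l1), partners of the anaphase-promoting complex (Cdc20 and Ube2c), centromere and kinetochore (Cenpa, Cenpe, Cenpf, Ndc80, Nuf2 and Spc25), spindle motors and spindle assembly (Kif11, Kif2c, Kif4, Tpx2 and Nusap1), cytokinesis (Kif20a, Kif23, Prc1, Anln, Ect2 and Racgap1), chromosome structure (Top2a, Mki67, Ncapg, Ncaph and Smc2), and transcription factors (Foxm1 and Mybl2). RNA was sequenced from conventional dendritic cells (cDCs) of both subsets, cDC1 and cDC2, sorted from the spleens of untreated C57Bl/6 mice aged 6 to 12 weeks. In the deletion line, labelled CD11cCRExZeb2fl/fl, Cre recombinase driven by CD11c removes floxed Zeb2, and in the transgene line, labelled CD11cCRExR26-Zeb2Tg/Tg, the same driver turns on Zeb2 from the Rosa26 locus. Controls carried the floxed alleles (Zeb2fl/fl) or the transgene (R26-Zeb2Tg/Tg) without Cre, so no group was wild type at both loci. Each subset and line gave 2 control libraries and 4 Cre-positive libraries, 24 libraries in 8 groups. CD11c is expressed by both subsets and by other myeloid cells, so Cre was not limited to the sorted population, and no Cre-positive group without a Zeb2 allele was analysed here.

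Cells entering mitosis raise cyclin B with Cdk1, condense and attach their chromosomes, and then destroy cyclins and securin through the anaphase-promoting complex before the cell divides. Most genes of this programme are transcribed late in the cell cycle, when the B-Myb (Mybl2) and FoxM1 complex replaces the DREAM repressor at their promoters, commonly at a sequence called the cell cycle genes homology region (CHR), often near CCAAT boxes bound by NF-Y. Splenic cDCs are short-lived cells that are replaced from bone-marrow pre-DCs, and some still divide in the spleen. In bulk RNA, fewer cells in mitosis and less mitotic RNA per cell cannot be told apart.

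The promoters of 5 members are printed to show the sequences shared by most of the group. Aurka, Ube2c and Top2a were chosen as members that moved in both of the Cre comparisons with calls, Mybl2 as one of the transcription factors, and Plk4 as the member that followed the others least. Each window runs from 250 bases before to 50 after the annotated start in RefSeq (GRCm38.p6), 5′ to 3′ on the gene's strand, and capitals mark TTTGAA (the CHR core) or CCAAT on either strand, where the reverse complements read TTCAAA and ATTGG. The positions are chr2:172370521-172370820, minus strand for Aurka, chr2:164769679-164769978, plus strand for Ube2c, chr11:99024140-99024439, minus strand for Top2a, chr2:163054385-163054684, plus strand for Mybl2 and chr3:40799701-40800000, plus strand for Plk4.
Aurka: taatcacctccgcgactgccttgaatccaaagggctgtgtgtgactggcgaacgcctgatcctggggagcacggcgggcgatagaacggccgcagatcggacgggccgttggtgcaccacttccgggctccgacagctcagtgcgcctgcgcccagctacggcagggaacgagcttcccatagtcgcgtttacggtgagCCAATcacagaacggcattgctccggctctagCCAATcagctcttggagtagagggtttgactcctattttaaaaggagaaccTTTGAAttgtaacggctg
Ube2c: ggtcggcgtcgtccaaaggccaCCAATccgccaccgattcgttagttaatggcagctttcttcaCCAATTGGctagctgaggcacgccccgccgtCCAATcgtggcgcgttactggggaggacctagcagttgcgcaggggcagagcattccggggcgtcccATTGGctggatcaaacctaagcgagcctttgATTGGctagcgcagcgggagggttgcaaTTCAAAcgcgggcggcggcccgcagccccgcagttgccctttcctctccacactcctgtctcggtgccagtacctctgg
Top2a: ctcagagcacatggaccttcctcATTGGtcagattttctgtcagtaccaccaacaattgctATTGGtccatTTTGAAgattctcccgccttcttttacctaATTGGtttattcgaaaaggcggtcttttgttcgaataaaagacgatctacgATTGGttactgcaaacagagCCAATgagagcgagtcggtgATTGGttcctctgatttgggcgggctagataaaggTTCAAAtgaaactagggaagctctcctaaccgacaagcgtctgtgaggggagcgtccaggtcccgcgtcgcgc
Mybl2: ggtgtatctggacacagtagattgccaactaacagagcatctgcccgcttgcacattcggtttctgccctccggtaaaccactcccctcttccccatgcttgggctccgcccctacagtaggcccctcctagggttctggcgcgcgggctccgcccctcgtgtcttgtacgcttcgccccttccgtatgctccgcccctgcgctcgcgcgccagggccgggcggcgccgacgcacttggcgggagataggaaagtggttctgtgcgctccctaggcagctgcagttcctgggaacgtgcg
Plk4: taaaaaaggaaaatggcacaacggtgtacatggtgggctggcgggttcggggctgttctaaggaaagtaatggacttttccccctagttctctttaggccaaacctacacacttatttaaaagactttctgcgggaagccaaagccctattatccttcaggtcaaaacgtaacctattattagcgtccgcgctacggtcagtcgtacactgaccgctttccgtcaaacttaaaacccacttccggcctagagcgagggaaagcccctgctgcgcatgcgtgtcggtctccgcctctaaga
Aurka holds TTTGAA 32 bases after its start and CCAAT at 2 places. Ube2c holds TTTGAA once, 29 bases before the start, with 6 CCAAT matches, and Top2a holds 2 TTTGAA and 6 CCAAT matches. The Mybl2 and Plk4 windows hold neither motif.

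RefSeq windows were found for 35 of the 41 members, the others being Aurkb, Ccna2, Cdc25c, Foxm1, Kif20a and Tpx2. TTTGAA lay in 25 of the 35 (71.4%), against 14.4% of 10057 genes tested for expression that have a window and 20.2% of all 27025 genes in the table. CCAAT lay in 25 of the 35 (71.4%), against 42.7% of the genes tested, and both motifs together in 22 of the 35 (62.9%), against 5.80%. Both strands were searched, and each match was counted on its own even where the ends of matches overlap, as in the palindromic CCAAT of Ube2c. Of 33 TTTGAA matches, counted in 1 window per gene, 24 began within 50 bases of the start. These are matches of letters and not measured binding sites.

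Each library held between 21972763 and 36094786 gene counts over 13396 to 14260 detected genes. Values below are CPM, counts scaled by TMM to a common library size. Comparisons used the quasi-likelihood test of edgeR over 13166 genes with p-values adjusted by the Benjamini-Hochberg method, at a threshold of 0.05. Whether replicates are separate mice is not stated in the labels, and p-values reflect only how these libraries vary. All 28 pairs of replicates differed by more than sampling noise. Zeb2 followed the labels where it could be checked: in cDC2 of the deletion line it stood at 30.7 to 41.4 CPM with Cre against 176 and 132 in the controls, and in cDC1 of the transgene line at 41.4 to 46.3 against 3.26 and 2.36. It stood at 148 to 159 CPM with Cre against 104 and 104 in cDC2 of the transgene line, and at 0.457 to 2.67 against 0.488 and 2.56 in cDC1 of the deletion line, where it was low without Cre. The sorted subsets carried their markers, with the summed cDC1 list (Xcr1, Clec9a and 5 others) at 4059 to 8079 CPM in cDC1 and 146 to 332 in cDC2 libraries.

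The mitosis genes were highest in cDC1 with the Zeb2 transgene and lowest in both deletion groups with Cre and in the deletion-line cDC1 controls. Averaged as log2 CPM over the 41 members, the deletion-line cDC1 libraries stood at 3.85 and 3.39 without Cre and at 3.74, 3.11, 3.03 and 3.56 with Cre. In cDC1 of the transgene line the average was 4.09 and 4.16 without Cre and 4.77, 4.63, 5.18 and 4.84 with Cre. Every Cre-positive library of that line lay above both controls, whereas the deletion-line cDC1 libraries overlapped. In deletion-line cDC2 it was 4.32 and 4.48 without Cre and 3.54, 3.30, 3.69 and 3.49 with Cre, with all Cre-positive libraries below both controls. Transgene-line cDC2 overlapped, at 4.28 and 4.09 without Cre and at 4.52, 4.17, 4.45 and 4.25 with Cre.

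**Figure D1:**
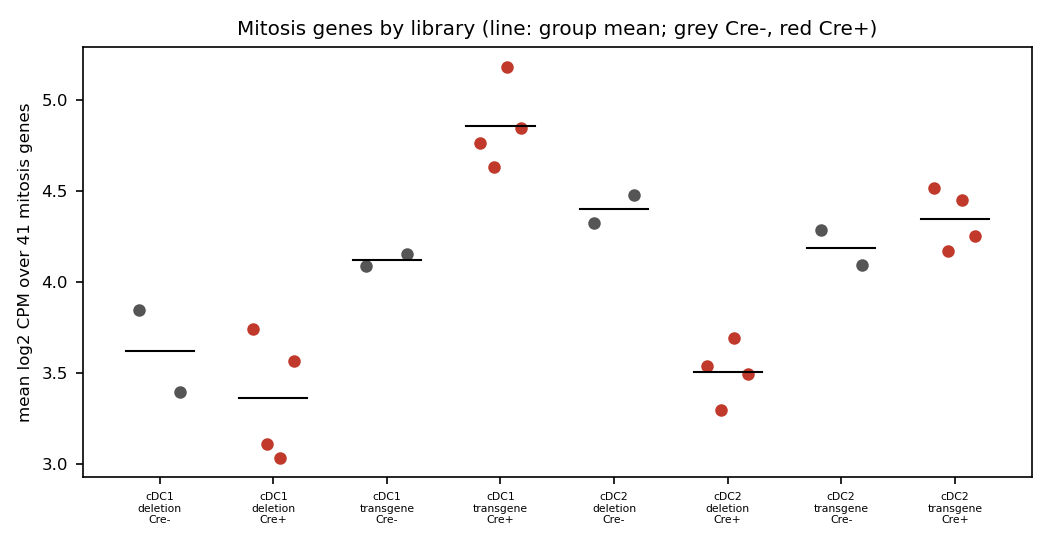
Mean log2 CPM over the 41 mitosis genes (vertical axis) in each of the 24 libraries, by subset, line and Cre; points are libraries and lines are group means. The 4 Cre-positive cDC1 libraries of the transgene line lie between 4.63 and 5.18, above their controls, and the 4 Cre-positive cDC2 libraries of the deletion line between 3.30 and 3.69, below theirs.

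Per kb of exon, averaged over all libraries, Ccnb2, a B-type cyclin, was the most abundant member at 24.4 CPM per kb. Cdc20, which activates the anaphase-promoting complex, followed at 14.4, Ccna2 (cyclin A2) at 13.7 and Aurkb at 12.1 CPM per kb. The kinetochore proteins Cenpe and Cenpf were the scarcest, at 0.577 and 0.235 CPM per kb. Lengths are all annotated exons of a gene merged, which can exceed the transcript expressed. Ccnb2 has the shortest merged length (1531 bp) and Cenpf the longest (15433 bp), so the order depends in part on the annotation.

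Members rose and fell together across libraries. Pearson's r of each member's log2 CPM with the mean of the other 40 had a median of 0.883 over the 24 libraries, which share groups and sorting. Ccna2 was the closest follower at 0.986. The exceptions were Plk4, the kinase that starts centriole duplication, at 0.259, and Kif23, a kinesin of the midbody, at 0.512. After group means were subtracted, the median was 0.760, with Mybl2 lowest at 0.294 and Plk4 at 0.700.

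Without Cre, cDC2 held more RNA of many mitosis genes than cDC1, but not of all. Of the 41 members, 18 were higher in control cDC2, 3 were lower and the median log2 fold change was 0.35, where 27.6% of all genes tested were higher, 25.8% were lower and the median was 0.05. Ccnf, the F-box protein cyclin F, stood at 46.0 and 54.1 CPM (deletion line) and 47.9 and 45.4 CPM (transgene line) in control cDC2. In control cDC1 it stood at 9.96 and 7.52 CPM and at 17.96 and 22.4 CPM. The subsets did not overlap, and Ccnf was 3.64-fold higher in cDC2 (48.3 ± 3.97 against 14.5 ± 6.92 CPM, SD, n = 4 each; edgeR adjusted p = 4.61e-12). Prc1, which bundles microtubules of the central spindle, was 2.65-fold higher (24.4 ± 3.59 against 9.29 ± 3.22 CPM; edgeR adjusted p = 1.89e-06), and Spc25, a subunit of the kinetochore's Ndc80 complex, 2.09-fold higher (edgeR adjusted p = 2.28e-05). The 3 lower members were Plk4, Kif23 and Ccnb2. Plk4 stood at 16.6, 22.9, 20.1 and 14.8 CPM in control cDC2 and at 37.9, 28.02, 35.3 and 38.5 CPM in control cDC1. These values did not overlap and made Plk4 1.88-fold lower in cDC2 (edgeR adjusted p = 5.73e-06), and Kif23 fell short of cDC1 by 1.71-fold (33.2 ± 2.66 and 57.0 ± 11.4 CPM; edgeR adjusted p = 7.88e-05).

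Controls were also compared between the lines. In cDC1 all 41 members had a positive log2 difference, transgene line minus deletion line, with a median of 0.42. The median was 0.28 without deletion-line control replicate 2 and 0.70 without deletion-line control replicate 1, and 35 to 41 members stayed positive when 1 control was left out. Of the 41, 1 (Ccnf) passed as higher and none as lower (0.0456% and 0.0835% of all genes tested). Ccnf was 2.30-fold higher in the transgene line, at 20.2 ± 3.14 against 8.74 ± 1.72 CPM (SD, n = 2 each; edgeR adjusted p = 0.000762, but 0.225 in a fit of these 4 libraries alone and 0.0518 without deletion-line control replicate 2). In cDC2 none passed by edgeR (3 with an unadjusted p under 0.05; 0.0835% of all genes tested were higher and 0.0532% lower) and the median difference was -0.21, or -0.11 without deletion-line control replicate 2.

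With the Zeb2 transgene, mitosis genes rose in cDC1. Of the 41 members, 18 rose and none fell, against 3.58% of all genes tested that rose and 3.42% that fell, and 40 had a positive log2 fold change. The median was 0.77, where the median over all genes was 0.02. The 4 Cre-positive libraries lay above both controls for 34 members (13.4% of all genes), beside the count of 18 that passed the threshold. This count leans on the controls: it was 2 without control replicate 1, 9 without control replicate 2 and 10 without Cre-positive replicate 3, while 39 or 40 members stayed positive in each of these fits. Ccnf and Aurka were the 2 of the 18 that passed in every fit that left out a library. In the same libraries the summed cDC2 marker list was 117 to 291 CPM with Cre against 32.4 to 38.3, with all 6 of its genes higher. The cDC1 list was 4059 to 5415 against 6766 to 8079 CPM, with Irf8, Tlr3 and Cd8a lower. The pDC list was 66.8 to 81.6 against 99.6 to 105 CPM, with Ccr9 lower, and the germinal centre B and plasma cell list 23.7 to 32.1 against 34.7 to 74.9 CPM, with Jchain lower. Of the monocyte list, which overlapped, Csf1r was 3.65-fold higher (edgeR adjusted p = 2.42e-07), and Prf1 of the NK cell list was lower. Fn1 and Ly6c2 of the monocyte list went the other way from Csf1r without a call (log2 -3.03 and -1.05, edgeR adjusted p = 0.132 and 0.451). Its Ccr2 was at log2 0.42 (edgeR adjusted p = 0.647). The progenitor list was 546 to 651 against 954 to 1015 CPM, with Kit and Flt3 lower. Cd34 of that list went the other way without a call (log2 0.75, edgeR adjusted p = 0.197). Elane was at 0 in all Cre-positive libraries, and Ctsg was at 0 in these and in both controls. The red pulp macrophage list was 113 to 218 against 85.9 to 114 CPM, with Spic and Adgre1 higher, and the B cell list 10.6 to 24.4 against 32.6 to 49.7 CPM, with Ms4a1 lower. The part of these shifts in the rise of mitosis genes was not tested.

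With deletion of Zeb2, mitosis genes fell in cDC2. Of the 41 members, 26 fell and none rose, against 2.88% of all genes tested that fell and 2.33% that rose, and all 41 log2 fold changes were negative. The median was -0.93, where the median over all genes was 0.01. The Cre-positive libraries lay below both controls for all members but Smc2, 40 in number (13.6% of all genes), beside the count of 26 that passed the threshold. The count was 11 without control replicate 1 and 13 without control replicate 2, with all 41 still negative in every fit that left out a library. Of the 26, 6 passed in each of those fits: Ccna2, Ccnf, Bub1b, Cdc20, Ube2c and Ncaph. Beside this, the progenitor list was 1498 to 1744 CPM with Cre against 998 to 1013, with Kit and Flt3 higher. Cd34 of that list went the other way without a call (log2 -0.51, edgeR adjusted p = 0.429). Mpo, Elane and Ctsg were at 0 in both controls, and Ctsg was also at 0 in all 4 Cre-positive libraries. The monocyte list was 465 to 560 against 893 to 1139 CPM, with Ccr2 and Csf1r lower. Ly6c2 and Fn1 of the monocyte list went the other way without a call (log2 1.32 and 0.28, edgeR adjusted p = 0.470 and 0.915). The cDC1 list was 146 to 174 against 189 to 216 CPM, with Clec9a and Cadm1 5.48-fold and 2.71-fold lower and Tlr3 higher. The pDC list was 87.3 to 96.8 against 98.3 to 106 CPM with no gene called, and the B cell list 195 to 251 against 57.3 to 71.2 CPM, with Ms4a1 higher. Tfrc, the transferrin receptor that dividing cells also use, was lower in the erythroid list, while Hba-a1 was at 0. The T cell, NK cell and neutrophil lists summed to at most 5.15 CPM in these 6 libraries, and the part of the other lists in the fall was not tested.

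**Figure D2:**
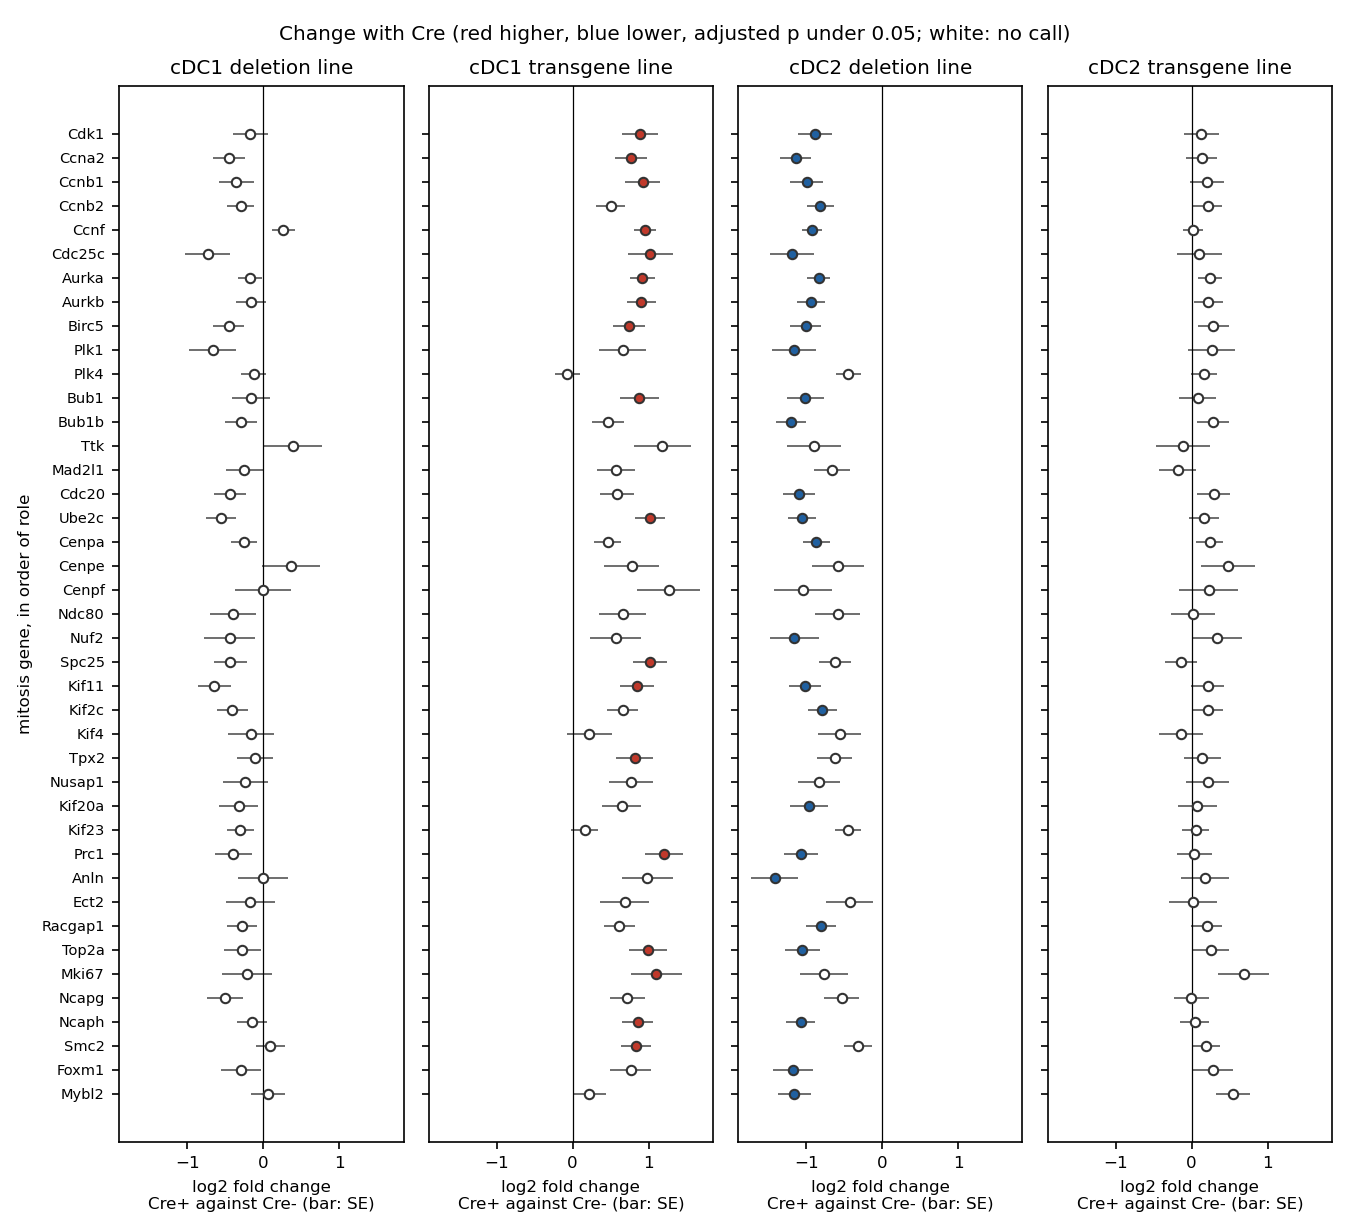
Log2 fold change of each of the 41 mitosis genes with Cre (horizontal axis; bars are standard errors) in the 4 combinations of subset and line, in order of role. In transgene-line cDC1, 18 genes are marked higher, in deletion-line cDC2, 26 are marked lower, and in the other 2 panels none is marked.

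Among the cyclins and their kinase, 5 of 6 rose in cDC1 with the transgene and all 6 fell in cDC2 with the deletion. Ccnf (chr17:24222198-24251484 in GRCm38, minus strand) stood at 39.9, 38.3, 38.6 and 39.6 CPM in transgene cDC1 with Cre, against 17.96 and 22.4 CPM without Cre. The Cre-positive libraries lay close together and clear of the controls, a 1.94-fold rise (SE 0.14 on the log2 scale; edgeR adjusted p = 0.000122). In cDC2 of the deletion line Ccnf stood at 29.3, 24.9, 27.6 and 23.6 CPM with Cre and at 46.0 and 54.1 without, again without overlap, and fell 1.90-fold (log2 -0.93, SE 0.13; edgeR adjusted p = 0.000150). Ccna2, which drives S phase and entry to mitosis, stood at 89.2, 85.8, 115 and 110 CPM in transgene cDC1 and at 63.3 and 54.4 CPM in the controls. That 1.70-fold rise passed (edgeR adjusted p = 0.0309) but not without control replicate 1 or 2 (0.0843 and 0.239) or Cre-positive replicate 3 or 4 (0.0727 and 0.0564). In deletion-line cDC2, Ccna2 stood at 31.2, 25.3, 35.3 and 29.4 CPM with Cre, less than each control at 61.9 and 71.4, a 2.20-fold fall (edgeR adjusted p = 0.00137). Cdk1, the kinase of cyclins A and B, rose 1.84-fold in transgene cDC1 and fell 1.85-fold in deletion cDC2 (edgeR adjusted p = 0.0226 and 0.0207). Each of these Cdk1 calls was lost in 3 of the 6 fits that left out a library. Ccnb1 rose 1.89-fold and fell 1.99-fold, and Cdc25c, the phosphatase that activates Cdk1, rose 2.03-fold and fell 2.28-fold from a low level (3.37 ± 0.107 and 3.43 ± 1.62 CPM in the controls, SD, n = 2 each). The rise of Cdc25c was lost in all 6 fits that left out a library (edgeR adjusted p = 0.0587 to 0.188) and without a filter on low counts (0.0558). Its fall was lost without control replicate 2 (0.424) or Cre-positive replicate 2 (0.0541) and in a fit of these 6 libraries alone (0.130). Ccnb2 fell 1.76-fold in deletion cDC2, and in transgene cDC1 its log2 fold change was 0.50 (edgeR adjusted p = 0.121). Ccnb1 and Ccnb2 have pseudogenes (Ccnb1-ps and Ccnb2-ps), and how reads that match both were counted is not given.

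Of the mitotic kinases and passenger proteins, 3 of 5 rose in transgene cDC1 and 4 of 5 fell in deletion cDC2. Aurka, the kinase of centrosomes and spindle poles, stood at 35.0, 30.1, 39.4 and 36.2 CPM in transgene cDC1 with Cre, against 17.3 and 19.9 CPM without. With Cre in deletion cDC2 the values were 16.9, 13.1, 19.1 and 14.9 CPM, against 30.1 and 27.0 CPM. Neither comparison overlapped. Aurka rose 1.89-fold in the first (SE 0.16 on the log2 scale; edgeR adjusted p = 0.000625) and fell 1.78-fold in the second (SE 0.15; edgeR adjusted p = 0.00150, and 0.0530 without control replicate 1). Aurkb, the kinase of the passenger complex, stood at 62.8, 62.6, 75.4 and 73.3 CPM in transgene cDC1 against 35.2 and 38.1, and at 20.4, 14.5, 22.6 and 23.0 CPM in deletion cDC2 against 41.7 and 35.2. It too was free of overlap in both, rising 1.87-fold and falling 1.91-fold. Birc5, the survivin subunit of that complex, rose 1.68-fold and fell 2.01-fold (edgeR adjusted p = 0.0329 and 0.00408). Its rise was lost in 3 of the 6 fits that left out a library, and its fall in 1. Plk1 fell 2.23-fold in deletion cDC2 (10.8 ± 2.55 against 24.0 ± 0.177 CPM, SD, n = 4 and 2; edgeR adjusted p = 0.0208). This fall was lost in 5 of the 6 fits that left out a library. The log2 fold change of Plk1 in transgene cDC1 was 0.66 (edgeR adjusted p = 0.234). Plk4 passed in neither. It stood at 32.5, 31.9, 40.9 and 35.4 CPM in Cre-positive transgene cDC1, which overlapped the controls at 35.3 and 38.5 CPM. Its log2 fold change was -0.07 there, the one member below 0, and -0.45 in deletion cDC2 (edgeR adjusted p = 0.139).

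**Figure D3:**
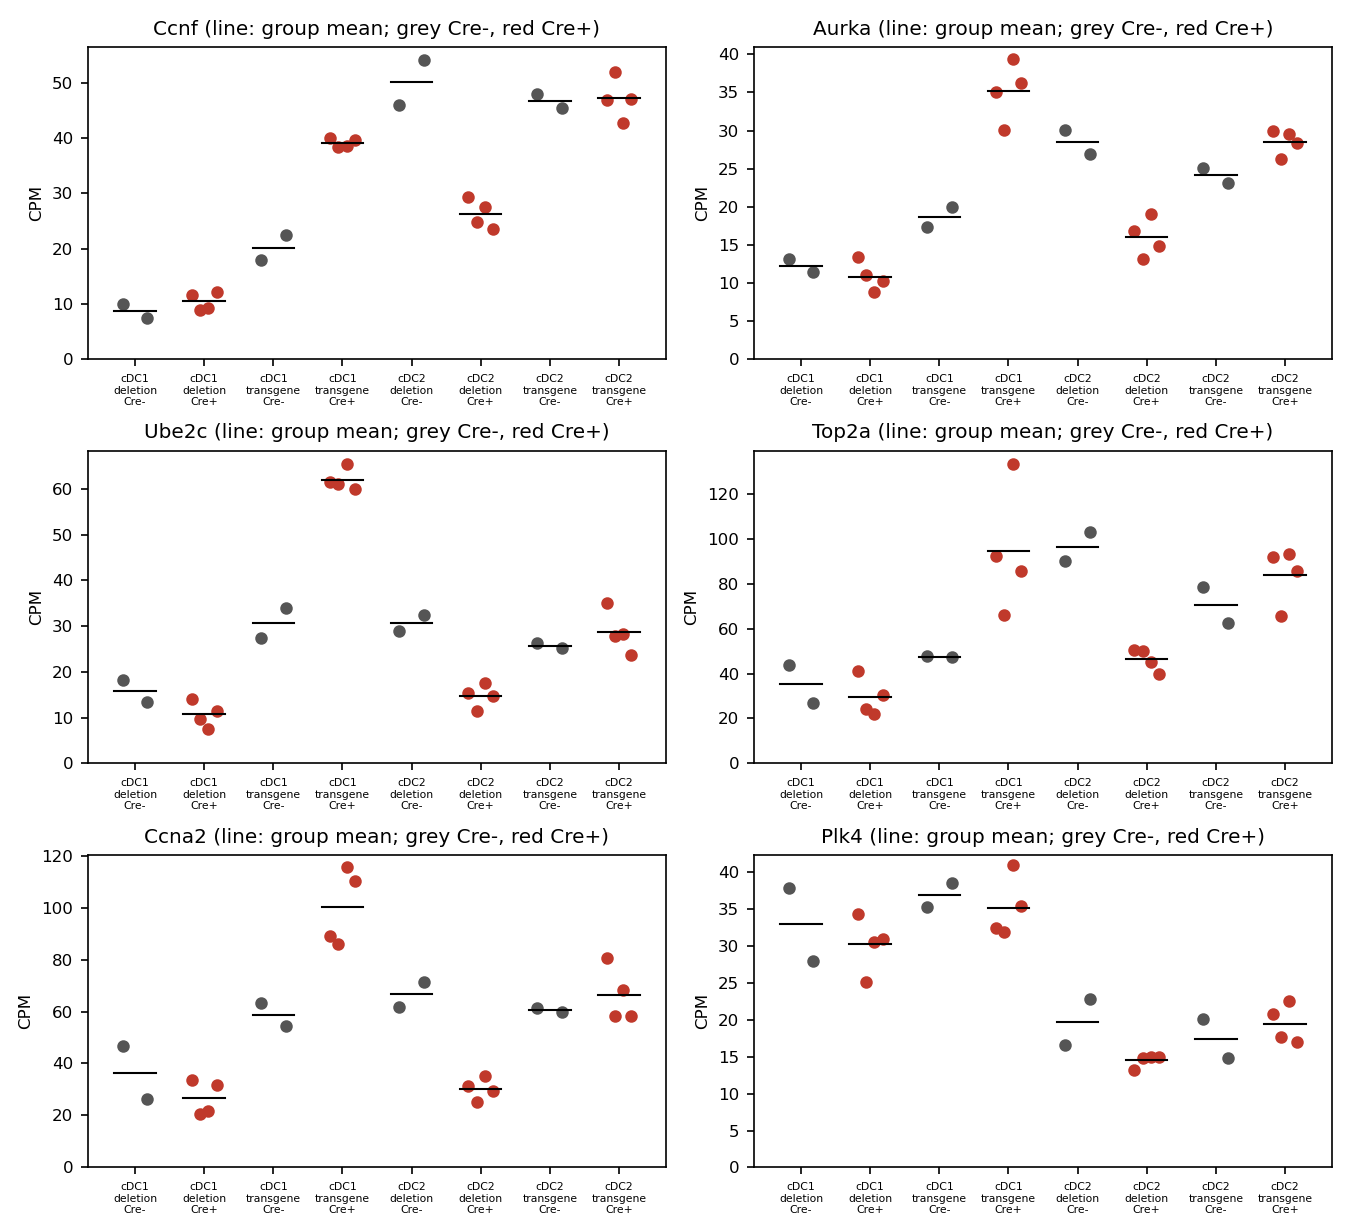
CPM (vertical axis, linear from 0) of Ccnf, Aurka, Ube2c, Top2a, Ccna2 and Plk4 in the 24 libraries; points are libraries and lines are group means. Ccnf in transgene-line cDC1 moves from 17.96 and 22.4 CPM without Cre to between 38.3 and 39.9 CPM with Cre, while Plk4 overlaps there and is higher in all cDC1 than in all cDC2 libraries.

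The spindle checkpoint holds anaphase back until every kinetochore is attached. Of its 4 members, Bub1 rose in transgene cDC1 (1.84-fold), and Bub1 and Bub1b fell in deletion cDC2. The rise of Bub1 was lost without control replicate 1 or 2 or Cre-positive replicate 3 (edgeR adjusted p = 0.101 to 0.178), and its fall without control replicate 1 (0.225). Bub1b, which encodes BubR1, stood at 25.5, 19.0, 23.3 and 26.2 CPM with Cre in deletion cDC2, all under the controls at 54.8 and 53.5, and fell 2.30-fold (SE 0.20 on the log2 scale; edgeR adjusted p = 0.000686). In transgene cDC1 it stood at 50.1, 42.3, 74.6 and 55.0 CPM against 38.0 and 42.5, so that the lowest Cre-positive library lay below the higher control (edgeR adjusted p = 0.215). The kinase Ttk had log2 fold changes of 1.18 and -0.90 and Mad2l1 of 0.57 and -0.66, and neither passed. Of the partners of the anaphase-promoting complex, Ube2c, the E2 enzyme that starts its ubiquitin chains, stood at 61.6, 61.1, 65.4 and 59.9 CPM in transgene cDC1 against 27.4 and 34.0 CPM. In deletion cDC2 it stood at 15.3, 11.5, 17.5 and 14.7 CPM against 29.0 and 32.3 CPM. Both comparisons were free of overlap, with a 2.02-fold rise (edgeR adjusted p = 0.00182, and 0.0535 without control replicate 1) and a 2.07-fold fall (edgeR adjusted p = 0.00127). In the GENCODE M21 annotation, 22.8% of the exon length of Ube2c overlaps Tnnc2 on the other strand, and whether counting used strand is not given. Cdc20 fell 2.14-fold in deletion cDC2 (13.6 ± 2.02 against 29.2 ± 2.19 CPM, SD, n = 4 and 2), and its log2 fold change of 0.58 in transgene cDC1 did not pass.

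At the centromere and kinetochore, 1 of 6 members rose in transgene cDC1 and 2 fell in deletion cDC2. The one that rose was Spc25, at 15.3, 14.3, 23.4 and 19.8 CPM against 8.44 and 9.50 CPM, clear of its controls and 2.03-fold higher (edgeR adjusted p = 0.00533). Its log2 fold change in deletion cDC2 was -0.62 (edgeR adjusted p = 0.0994). Cenpa, the histone variant that marks centromeres, stood at 18.4, 14.2, 22.5 and 19.8 CPM in deletion cDC2 against 28.3 and 40.02 CPM, a 1.82-fold fall without overlap (edgeR adjusted p = 0.00409). In transgene cDC1 it stood at 53.1, 48.6, 55.4 and 56.7 against 39.5 and 38.2 CPM, also without overlap, and did not pass (log2 0.46, edgeR adjusted p = 0.138). Nuf2, another subunit of the Ndc80 complex, fell 2.23-fold in deletion cDC2 (edgeR adjusted p = 0.0389). That call was lost in 5 of the 6 fits that left out a library. The log2 fold changes of Cenpe, Cenpf and Ndc80 were 0.66 to 1.27 in transgene cDC1 and -1.04 to -0.58 in deletion cDC2, and none passed.

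Among spindle motors and assembly factors, Kif11 and Tpx2 rose in transgene cDC1, and Kif11 and Kif2c fell in deletion cDC2. Kif11 (Eg5), which pushes the spindle poles apart, rose 1.80-fold and fell 2.02-fold (edgeR adjusted p = 0.0221 and 0.00514). Its rise was lost in 3 of the 6 fits that left out a library, and its fall in 1. Tpx2, which activates Aurka on the spindle, stood at 29.8, 23.0, 44.7 and 33.8 CPM in transgene cDC1 and at 14.8 and 22.5 CPM without Cre. The lowest Cre-positive library was just above the higher control, and the 1.76-fold rise passed narrowly (edgeR adjusted p = 0.0469, and 0.113 in a fit of these 6 libraries alone). It was lost in 4 of the 6 fits that left out a library. In deletion cDC2, Tpx2 stood at 27.1, 21.5, 26.6 and 19.3 CPM against 36.7 and 36.2 CPM, without overlap but short of the threshold (log2 -0.63, edgeR adjusted p = 0.133). Kif2c, a kinesin that shortens microtubules, fell 1.72-fold. Nusap1 and Kif4 passed in neither comparison.

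Of the cytokinesis genes, Prc1 rose in transgene cDC1, and Prc1, Anln, Racgap1 and Kif20a fell in deletion cDC2. Of the exon length of Kif20a, 29.3% overlaps Cdc23 on the other strand. Prc1 stood at 21.9, 22.1, 31.4 and 21.4 CPM in transgene cDC1 and at 7.55 and 13.5 CPM in its controls, a 2.30-fold rise that was clear of the controls although these differed from each other (edgeR adjusted p = 0.00302, and 0.106 without control replicate 1). In deletion cDC2 it stood at 13.9, 11.3, 11.6 and 11.8 CPM against 21.5 and 29.4, a 2.09-fold fall without overlap. Racgap1, a subunit of centralspindlin, stood at 30.1, 25.9, 29.9 and 39.9 CPM in deletion cDC2 against 51.5 and 57.9 CPM. It fell 1.74-fold there (edgeR adjusted p = 0.0171). In transgene cDC1 it stood at 71.9, 71.4, 92.7 and 72.8 CPM, above 55.7 and 45.0 CPM, and did not pass (log2 0.61, edgeR adjusted p = 0.0759). Anln (anillin), a scaffold of the contractile ring, had the largest fall of the 41 members in deletion cDC2, 2.67-fold, from 12.2 ± 2.21 (SD, n = 2) to 4.58 ± 0.899 CPM (SD, n = 4). Ect2 and Kif23 passed in neither comparison.

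Of the genes of chromosome structure, 4 of 5 rose in transgene cDC1 and 2 fell in deletion cDC2. Top2a, the topoisomerase that untangles sister chromatids, stood at 92.4, 66.1, 133 and 85.8 CPM in transgene cDC1, above 47.7 and 47.2 CPM. In deletion cDC2 it stood at 50.5, 50.2, 45.0 and 40.02 CPM, below 89.9 and 103 CPM. Top2a rose 1.99-fold (edgeR adjusted p = 0.0147) and fell 2.08-fold (edgeR adjusted p = 0.00772), without overlap in either. Ncaph, a subunit of condensin, stood at 22.6, 24.4, 35.9 and 31.4 CPM against 16.3 and 15.3 CPM in transgene cDC1, and at 12.8, 12.4, 15.6 and 10.9 CPM against 27.0 and 27.4 CPM in deletion cDC2. The groups were apart in both, and Ncaph rose 1.81-fold and fell 2.11-fold. Mki67, which encodes the proliferation marker Ki-67, rose 2.15-fold in transgene cDC1 with a wide spread (42.3 ± 15.0 against 19.7 ± 5.17 CPM, SD, n = 4 and 2; edgeR adjusted p = 0.0497). Its call was lost with DESeq2 size factors (edgeR adjusted p = 0.0505) and in a fit of these 6 libraries alone (0.0642), and in each fit that left out a library other than Cre-positive replicate 2 (0.0545 to 0.318). Smc2, the condensin ATPase, rose 1.79-fold in transgene cDC1 (edgeR adjusted p = 0.00900, but 0.0791 in a fit of these 6 libraries alone and 0.133 without control replicate 1), and its log2 fold change of -0.32 was the smallest in deletion cDC2 (edgeR adjusted p = 0.406).

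Both transcription factors fell in deletion cDC2 and neither passed in transgene cDC1. Foxm1 stood at 6.75, 6.65, 12.2 and 7.70 CPM with Cre in deletion cDC2, below 21.0 and 16.6 CPM, a 2.25-fold fall (edgeR adjusted p = 0.00855). In transgene cDC1 it stood at 30.0, 28.9, 38.5 and 40.8 CPM, above controls of 14.7 and 26.1 CPM that lay far apart (log2 0.76, edgeR adjusted p = 0.0948). Mybl2 stood at 5.31, 4.20, 8.82 and 6.27 CPM in deletion cDC2 against 14.3 and 13.3 CPM, a 2.24-fold fall without overlap (edgeR adjusted p = 0.00208). In transgene cDC1 it stood at 14.5, 14.7, 20.7 and 21.3 CPM, overlapping controls at 16.5 and 14.1 CPM (log2 0.22, edgeR adjusted p = 0.646).

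The transgene in cDC2 and the deletion in cDC1 gave no call among the 41 by edgeR. In cDC2 with the transgene (0.114% of all genes tested rose, 0.213% fell), 36 members had a positive log2 fold change with a median of 0.19 (0.10 without control replicate 2). One, Mybl2, had an unadjusted p under 0.05, at 14.1, 15.0, 14.2 and 12.0 CPM against 9.38 and 9.65 CPM, which did not overlap (log2 0.54, edgeR adjusted p = 0.468). In cDC1 with the deletion (0.0228% of all genes rose, 0% fell), 35 members had a negative log2 fold change with a median of -0.27, and 7 had an unadjusted p under 0.05, all lower. Kif11 had the smallest, with 10.9 CPM on average against 17.1 CPM (log2 -0.65, edgeR adjusted p = 0.948). The median there ran from -0.47 without control replicate 2 to -0.03 without control replicate 1, so these controls set it. DESeq2 also called no member in either comparison.

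Tests of the differences between Cre effects gave more calls between lines than between subsets. In cDC1, the log2 change with the transgene minus that with the deletion was positive for all 41 members, with a median of 1.02. Of the 41, 13 passed as higher and none as lower (1.42% and 1.47% of all genes tested). Ube2c led with a difference of 1.57 (edgeR adjusted p = 0.00174), followed by Aurka, Kif11, Prc1, Spc25, Cdc25c, Birc5 and Ccna2. The count was 1 without deletion-line control replicate 1, 3 and 5 without transgene-line control replicate 1 or 2, 8 without transgene replicate 3 or deletion replicate 2 of the Cre-positive cDC1, and 6 in a fit of these 12 libraries alone. In cDC2 the difference was positive for all 41, with a median of 1.09, and 19 passed as higher and none as lower (2.26% and 2.18% of all genes). Mybl2 led at 1.70 (edgeR adjusted p = 0.00255), followed by Bub1b, Aurka, Ccnf, Cdc20, Ube2c, Birc5 and Cenpa. This count was 5 and 9 without transgene-line control replicate 2 or 1, 9 and 11 without deletion-line control replicate 2 or 1, and 12 without Cre-positive transgene replicate 3. Bub1b, Aurka, Ccnf and Mybl2 passed in every fit that left out a library.

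Between subsets, the Cre effect in cDC2 minus that in cDC1 passed for 1 member in the deletion line (0.494% of all genes tested were lower and 0.585% higher) and for 2 in the transgene line (1.18% lower and 0.82% higher), although all 41 and 39 of 41 differences were negative. The median differences were -0.62 (-0.41 without deletion-line cDC1 control replicate 2) and -0.64. Ccnf passed in both, with differences of -1.19 (edgeR adjusted p = 0.00412) and -0.94 (edgeR adjusted p = 0.00884, and 0.0677 without transgene-line cDC1 control replicate 1). In the deletion line it was 10.5 CPM on average with Cre and 8.74 CPM without in cDC1, where cDC2 held 26.3 and 50.1 CPM. Spc25 passed in the transgene line (-1.17, edgeR adjusted p = 0.0448), but not in a fit of these 12 libraries alone (0.0895) or without any of 8 single libraries, cDC1 control replicates 1 and 2 and Cre-positive replicates 3 and 4 and cDC2 control replicate 1 and Cre-positive replicates 2, 3 and 4 (adjusted p = 0.0604 to 0.283). Averaged over the 4 combinations of subset and line, the Cre effect passed for no member by edgeR (1 with an unadjusted p under 0.05; 0.57% of all genes rose and 0.22% fell), with a median of -0.08, which ran from -0.13 to -0.04 when 1 library was left out.

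The lists of members that passed in transgene cDC1 and in deletion cDC2, comparisons that share no library, had 14 in common, 77.8% of the 18 and 53.8% of the 26. Over all genes tested, 0.463% passed as higher in the first and lower in the second, 12.9% and 16.1% of the genes so called. With 18 and 26 of 41 called, a product of the 2 shares gives 11.4 shared members, so the 14 lie close to that number. The 4 that passed with the transgene in cDC1 but not in the other were Mki67, Smc2, Spc25 and Tpx2, and the 12 of the reverse kind were Anln, Bub1b, Ccnb2, Cdc20, Cenpa, Foxm1, Kif20a, Kif2c, Mybl2, Nuf2, Plk1 and Racgap1. The other 11 passed in neither. Across the 41 members, which are not independent, Pearson's r between the 2 log2 fold changes was -0.32 and Spearman's rho -0.22.

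**Figure D4:**
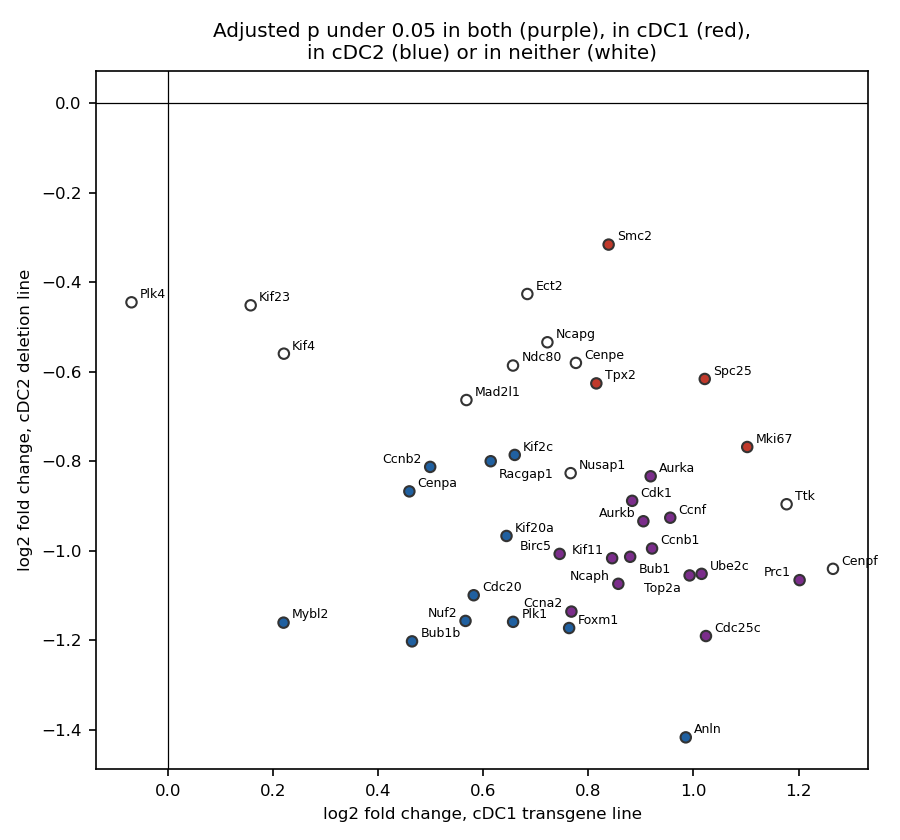
Log2 fold change with Cre of each mitosis gene in transgene-line cDC1 (horizontal axis) and in deletion-line cDC2 (vertical axis), coloured by where it passed. All points but Plk4 lie to the right of 0 and below 0, and 14 genes passed in both.

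The share of members that passed was equal with and without the CHR core. With TTTGAA in the window, 10 of 25 members rose in transgene cDC1 and 15 of 25 fell in deletion cDC2 (median log2 fold changes 0.84 and -0.87). Without it, 4 of 10 rose and 6 of 10 fell (medians 0.76 and -1.0).

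Other genes of the cell cycle were counted from lists that name no member. Of 39 other mitosis genes tested, 10 rose in transgene cDC1 and 24 fell in deletion cDC2, among them Ckap2l, a mitotic spindle protein (2.28-fold higher and 1.93-fold lower), Cdca8, the borealin subunit of the passenger complex (1.71-fold and 1.87-fold), Cdca3 and the kinase Nek2. Of 24 DNA replication genes, 4 rose (Rrm1, Pcna, Tk1 and Slbp) and 13 fell, led by Tk1, thymidine kinase, which fell 2.41-fold, and the helicase genes Mcm10, Mcm3 and Mcm5. Of 13 genes of entry to S phase, none rose in transgene cDC1 by edgeR, and E2f1, Cdk4 and Ccnd3 (cyclin D3) fell in deletion cDC2 by 1.95-fold, 1.52-fold and 2.01-fold. Of 13 subunits of the anaphase-promoting complex, Anapc5 alone passed, 1.26-fold higher and 1.36-fold lower. Of 14 genes of DREAM, pocket proteins and E2F repressors, E2f8 fell in deletion cDC2 (edgeR adjusted p = 0.0496). Of 11 genes of CDK inhibitors and arrest, Cdkn2b, an inhibitor of Cdk4 and Cdk6, and Ccng2, an atypical cyclin linked to arrest, fell in transgene cDC1 by 3.56-fold and 1.84-fold, and none passed in deletion cDC2. The mean log2 CPM of the replication genes and of the mitosis genes had an r of 0.900 over the 24 libraries, which share groups and depth.

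**Figure D5:**
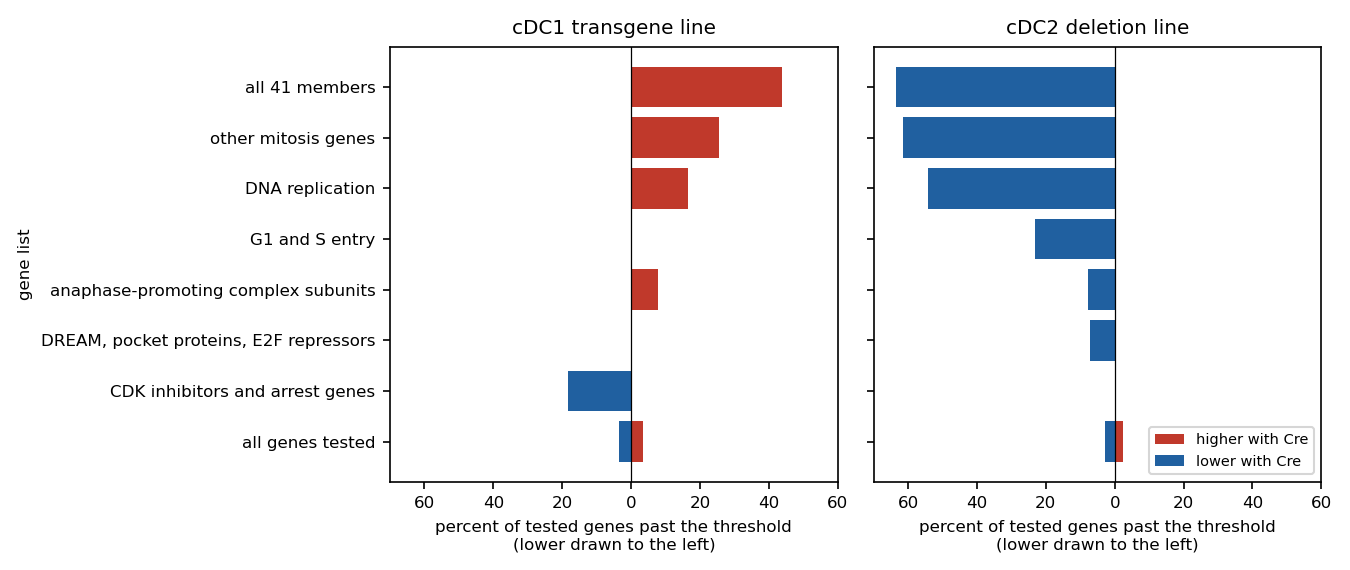
Share of tested genes past the threshold (horizontal axis, percent; lower to the left) in each gene list, in transgene-line cDC1 and deletion-line cDC2. The 41 members have the largest shares of the lists drawn, with 18 higher in the first comparison and 26 lower in the second, while the bars for all genes tested are short in both directions.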

How the data were processed

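Messenger RNA was measured in 24 libraries of sorted splenic cDC1 and cDC2. The labels gave each library's subset, line and Cre status. SMART-Seq v4 amplification began from 4 ng of RNA, and after 15 PCR cycles the pool was read as 75 bp single reads on 2 flow cells, per the labels' protocols. Per the submitters' processing notes, FastQC 0.11.4, Trimmomatic 0.35, TopHat2 2.1.0, SAMtools 0.1.18 and mm10 were used. The deposited files hold whole-number counts per gene symbol made by the authors, without scaling. How reads were counted (program, annotation, strand) is not given in the sources used here. Reads in no gene (10.4 to 15.7% without a feature, 0.970 to 1.09% ambiguous) were left out.

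The analysis used edgeR 4.0.16 and limma 3.58.1 under R 4.3.3: filterByExpr (minimum count 10, total 15), TMM, 8 group means in 1 quasi-likelihood fit, 12 contrasts and Benjamini-Hochberg adjustment. Log2 CPM used a prior count of 0.5. The procedure was tested on simulated data. Members, lists and tests were chosen with earlier results of these data known. Values in every library are given for the member with the highest mean CPM in each role, for up to 6 members by smallest p in a Cre comparison, and, chosen after their values were seen, for Plk4 and Mybl2. Up to 8 members with a differing Cre effect and up to 4 genes per pathway list are named, and other named members serve as counts or examples. Alternatives were DESeq2 1.42.0 or its size factors, no filter, at least 5 CPM in 4 libraries, fitting the compared libraries by themselves, a replicate-number block, and leaving out each library. For contrasts between subsets, the block instead joined cDC1 and cDC2 libraries of the same line, Cre status and number.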

Additional observations from a re-analysis of the deposited data

Results flagged for a closer look

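In 60 groups of 4 libraries (14 named members and the mean over all members), 2 had a library far from the other 3, where chance gives about 1 in 20. Both were Cre-positive replicate 3 of transgene-line cDC1, at 92.7 CPM for Racgap1 (the others 71.4 to 72.8) and at 31.4 CPM for Prc1 (the others 21.4 to 22.1).

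The Cre effect differed past the threshold between subsets for 1 member in the deletion line and for 2 in the transgene line in edgeR's quasi-likelihood fit, adjusted by Benjamini-Hochberg. On the log2 scale (cDC2 minus cDC1) these were Ccnf at -1.19 in the deletion line, and Ccnf at -0.94 and Spc25 at -1.17 in the transgene line. Between lines (transgene minus deletion) it differed for 13 members in cDC1 and for 19 in cDC2. In cDC1 the differences with the smallest p were Ube2c 1.57, Aurka 1.10, Kif11 1.49, Prc1 1.60, Spc25 1.45, Cdc25c 1.76, Birc5 1.20 and Ccna2 1.21. In cDC2 they were Mybl2 1.70, Bub1b 1.49, Aurka 1.08, Ccnf 0.94, Cdc20 1.39, Ube2c 1.22, Birc5 1.29 and Cenpa 1.11.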

How the results depend on the processing

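No call reversed. When 1 library was left out, the count of members higher in transgene cDC1 ran from 2 to 18 (18 with all libraries), of members lower in deletion cDC2 from 11 to 26 (26), the subset difference from 1 to 2 (1) in the deletion line and from 0 to 2 (2) in the transgene line, the line difference from 1 to 17 (13) in cDC1 and from 5 to 20 (19) in cDC2, and the cDC1 line controls from 0 to 1 (1). DESeq2 gave 2 members for the deletion-line subset difference and 2 for the cDC1 line controls, and a fit of the compared libraries alone gave 6 for the line difference in cDC1 and 0 for the cDC1 line controls. That fit was not run for the mean Cre effect, which uses all 8 groups. Of 101 calls in single members, 101 held with DESeq2, 101 with at least 5 CPM in 4 libraries, 100 with DESeq2 size factors, 98 without a filter, 92 with the replicate block and 88 in the compared libraries alone. Leaving out a library kept 614 of 856.

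Same-numbered cDC1 and cDC2 libraries deviated from their group means with r of 0.00360 to 0.133 (0.0575 to 0.133 with Cre), not all over 0.1. The main fit did not take the numbers to pair samples, but the block for contrasts between subsets did. In the Cre-positive deletion line, replicate distances (chi-square per gene) had the same order in both subsets. Replicates 1 and 4 were closest (20.6 in cDC1, 18.8 in cDC2) and 1 and 2 furthest apart (43.6 and 42.7). Whether same-numbered libraries share a mouse or batch was not tested. With the replicate block, the count of members higher in transgene cDC1 was 15, of members lower in deletion cDC2 26, of the subset differences 1 in the deletion and 2 in the transgene line, of the line differences 12 in cDC1 and 18 in cDC2, and of control cDC2 against cDC1 19 higher and 3 lower. With the block, the rises of Bub1, Mki67, Cdc25c and Tpx2 in transgene cDC1 were lost (edgeR adjusted p = 0.0685, 0.0972, 0.0916 and 0.103). Depth and the number of controls were not varied as such. The scarcest members, Cenpf, Ttk and Cdc25c, went down to 17, 23 and 26 counts in a library.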
